A study of Mus musculus with 2 samples.

Results

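The genes described here are 10 immediate early genes: Fos, Fosb, Jun, Junb, Jund, Egr1, Atf3, Ier2, Klf4 and Klf6. They were chosen by symbol, and all 10 were found among the 32286 features of both count matrices. They were read in 9247 of 10423 trace barcodes and in 6533 of 6863 pulse barcodes, cells in which 500 or more genes were seen and mitochondrial genes gave 10% or less of the unique molecular identifiers (UMIs). In both groups the mice carried Procr-CreER;tdTomato, so that Procr-expressing cells turn red when tamoxifen is given and pass the colour to their daughters. Trace cells were collected 4 weeks, and pulse cells 2 days, after tamoxifen was given at 4 weeks of age. Both groups were sorted as tdTomato-positive knee cartilage cells negative for CD45, Ter119, CD31 and DAPI, after 4 rounds of enzyme digestion of 20 min each at 37 °C. Each group was 1 library of 3 pooled mice with no record of which cell came from which mouse. No value therefore has a replicate error and no difference was tested. Intervals in brackets are exact 95% intervals, Poisson for levels and ratios and Clopper-Pearson for shares, and cover counting error only.

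Immediate early genes are transcribed within minutes of a signal, from factors already present in the cell, and their RNAs are short-lived. Fos family proteins pair with Jun family proteins to form the transcription factor AP-1, whereas Jun proteins can also pair with each other. Growth factors, stretch, stress and the isolation of cells from tissue can all switch these genes on, and the heat shock genes Hspa1a, Hspa1b, Dnajb1 and Hsph1 are switched on by unfolded protein and heat.

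The trace library held 40284041 UMIs and the pulse library 23306063, with medians of 3645 and 2837 UMIs per passing cell, and 15 barcodes occurred among the passing cells of both. The libraries differed in more than chase time. Xist, made in female cells, had 14149 trace and 3 pulse UMIs, and the Y-linked gene Ddx3y had 13 trace and 4246 pulse UMIs. Transcripts linked to ribosomal RNA took 8.89% of trace and 0.961% of pulse UMIs. Chase time, age, sex and library cannot be told apart. Cells were gated by marker genes: 4365 trace and 4025 pulse cells were superficial chondrocyte-gated, with at least 7 of 12 markers such as Prg4, Cilp and Creb5 and with Acan or Col2a1. The other classes with at least 50 cells in both libraries were deeper-zone chondrocyte-gated (134 trace, 645 pulse), synovial lining fibroblast-gated (765 and 235), loose connective tissue fibroblast-gated (576 and 155) and endothelial-gated cells (326 and 57). Endothelial-gated cells were present although the sort excluded CD31, and 191 trace cells carried B lineage and 246 trace cells neutrophil markers, against 0 and 3 pulse cells, although it excluded CD45. Of the superficial-gated cells, 208 in trace and 232 in pulse had exactly the 7 markers needed. In superficial-gated cells the median number of UMIs of every other class's markers was 0. The gate itself largely fixed that value, because cells that passed another gate were not placed in this class.

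Fos, the founding partner of AP-1, was higher in trace and Jun was lower when all passing cells were summed. The level of Fos was 322 UMIs per 1000000 UMIs (CPM) in trace and 162 CPM in pulse, a ratio of 1.99 (1.92 to 2.065). The level of Jun was 251 CPM in trace and 511 CPM in pulse, a ratio of 0.491 (0.478 to 0.504). Of the 10 genes, 1 (Fosb) was at least 2-fold higher and 3 (Jun, Klf4 and Klf6) at least 2-fold lower, where 3.59% and 9.14% of all 6638 genes at 20 CPM or more in either library were. The classes held unequal parts of the 2 libraries. Deeper-zone chondrocyte-gated cells held 54.8% of the Jun UMIs and 54.0% of the Fos UMIs of pulse in 22.1% of its UMIs. In trace the same class held 5.76% of the Jun UMIs and 4.44% of the Fos UMIs in 2.45% of its UMIs. The classes of both libraries were then weighted alike, with cells in no gate and cells in several gates each taken as a further group. B lineage-gated cells, which pulse lacked, were left out throughout. The ratio of Fos was 1.88 with the shares of pulse and 2.00 with those of trace, against 2.01 unweighted. The ratio of Jun was 0.548 and 0.644 under the same weights, against 0.494 unweighted. The opposite directions were thus also present with these groups held at equal shares. Cells in no gate (1817 trace and 1202 pulse) held 22.6% of the trace and 12.1% of the pulse Fos UMIs. The mix of cell types among them was not held equal.

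The promoters of Fos and Jun are shown because the 2 genes differed in direction, and that of Hspa1a because its RNA was used to define heat-shock-high cells below. Each line gives the 250 bases before the start site from RefSeq (GRCm38.p6), 5′ to 3′ on the strand of the gene: Fos at chr12:85473640-85473889 (+), Jun at chr4:95052223-95052472 (-) and Hspa1a at chr17:34972157-34972406 (-). Capitals mark TGACG, the core of the cyclic AMP response element, TGANTCA, the AP-1 site, TGACATCA, a related AP-1 site, and GAANNTTC, paired units of a heat shock element, all searched on both strands, and TATAAA on the strand of the gene.
Fos: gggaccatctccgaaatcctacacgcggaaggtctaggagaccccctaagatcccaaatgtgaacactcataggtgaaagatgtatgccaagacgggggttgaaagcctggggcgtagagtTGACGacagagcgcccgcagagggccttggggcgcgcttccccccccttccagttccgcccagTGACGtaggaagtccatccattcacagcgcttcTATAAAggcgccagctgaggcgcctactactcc
Jun: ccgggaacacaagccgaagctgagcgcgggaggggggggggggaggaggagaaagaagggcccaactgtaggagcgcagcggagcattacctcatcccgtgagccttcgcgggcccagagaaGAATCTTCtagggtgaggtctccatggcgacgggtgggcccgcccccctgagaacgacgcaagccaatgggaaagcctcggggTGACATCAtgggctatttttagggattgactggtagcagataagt
Hspa1a: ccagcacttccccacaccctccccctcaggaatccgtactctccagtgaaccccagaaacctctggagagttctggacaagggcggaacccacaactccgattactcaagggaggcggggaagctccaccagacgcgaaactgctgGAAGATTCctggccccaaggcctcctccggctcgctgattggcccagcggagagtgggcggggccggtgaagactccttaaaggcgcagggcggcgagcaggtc
The Fos window held TGACG 129 and 66 bases before the start and TATAAA 33 bases before it. The Jun window held GAANNTTC at 128 bases and TGACATCA at 45 bases, and the Hspa1a window held GAANNTTC at 104 bases. Among 32851 promoter windows of that length, 17.8% held TGACG, 6.75% TGANTCA, 2.93% TGACATCA, 6.69% GAANNTTC and 7.59% TATAAA. Matches of different motifs were allowed to overlap, and TGANTCA was in none of the 8 windows of the genes described here. Of the 10 genes, 8 were matched in the promoter table, and Egr1 and Ier2 are named only. The Jund window (chr8:70697489-70697738) did not adjoin the gene start at 70698949 of the GENCODE annotation. The Atf3 window (chr1:191183334-191183583) lay inside the GENCODE gene (191170296 to 191218039). Fosb, Junb, Atf3 and Klf4 each held TGACG and Klf6 held TGACATCA. These are matches of letters and were not tested as binding sites.

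In superficial chondrocyte-gated cells, Fos and Fosb were the 2 of the 10 genes at least 2-fold higher in trace, and 6 others were lower. Fos was at 108 CPM in trace and 34.8 CPM in pulse (2248 and 457 UMIs), a ratio of 3.10 (2.80 to 3.44). Fosb, a close relative of Fos that also pairs with Jun proteins, was at 22.1 and 8.60 CPM, a ratio of 2.57 (2.09 to 3.18). The Fos family had no common direction: among its members outside the 10 genes, named after their values were seen, Fosl2 was at 46.8 CPM in trace and 83.0 CPM in pulse, a ratio of 0.564 (0.517 to 0.615), and Fosl1 had a ratio of 1.21 (1.11 to 1.33). The Jun family did not move as a group. Jun itself was at 128 CPM in trace and 194 CPM in pulse, a ratio of 0.658 (0.623 to 0.695). Junb was at 307 and 250.5 CPM, a ratio of 1.23 (1.18 to 1.28), and Jund, the Jun protein that most resting cells already hold, was at 350.0 and 287 CPM, a ratio of 1.22 (1.17 to 1.27).

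The zinc finger factors and the remaining members were lower in trace. Egr1, a zinc finger factor induced by growth factors and stretch, was at 115 CPM in trace and 267 CPM in pulse, a ratio of 0.431 (0.410 to 0.455). Klf4 was at 582 and 1319 CPM (0.442, 0.432 to 0.452) and Klf6 at 133 and 378 CPM (0.352, 0.336 to 0.369); both are Krüppel-like factors, and Klf4 is best known from reprogramming to pluripotency. Atf3, a stress-induced partner of Jun, was at 81.1 and 122 CPM (0.667, 0.622 to 0.714). Ier2, a small nuclear protein of the early response, was at 47.6 and 57.4 CPM (0.829, 0.754 to 0.913). Counted at 2-fold, 2 of 10 genes were higher and 3 lower, where 2.19% and 8.97% of 6207 genes were. The median ratio of those genes was 0.851 (-0.23 on the log2 scale). Relative to that median, the ratios were 3.65 for Fos, 3.02 for Fosb, 0.773 for Jun and 0.414 for Klf6, no member changed direction, and Egr1 (0.507) and Klf4 (0.519) were less than 2-fold lower. Ier2 was at 0.975 of the median. Prg4, the lubricin gene that marks superficial cells, was itself at 26739 CPM in trace and 8649 CPM in pulse superficial-gated cells, a ratio of 3.09. The part of this unlikeness of the class in the ratios of the 10 genes was not tested. In endothelial-gated cells Prg4 was at 451 trace and 260 pulse CPM, a gauge of free RNA. No class known to lack the 10 genes was at hand, and the part of free RNA in their levels was not tested.

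**Figure D1:**
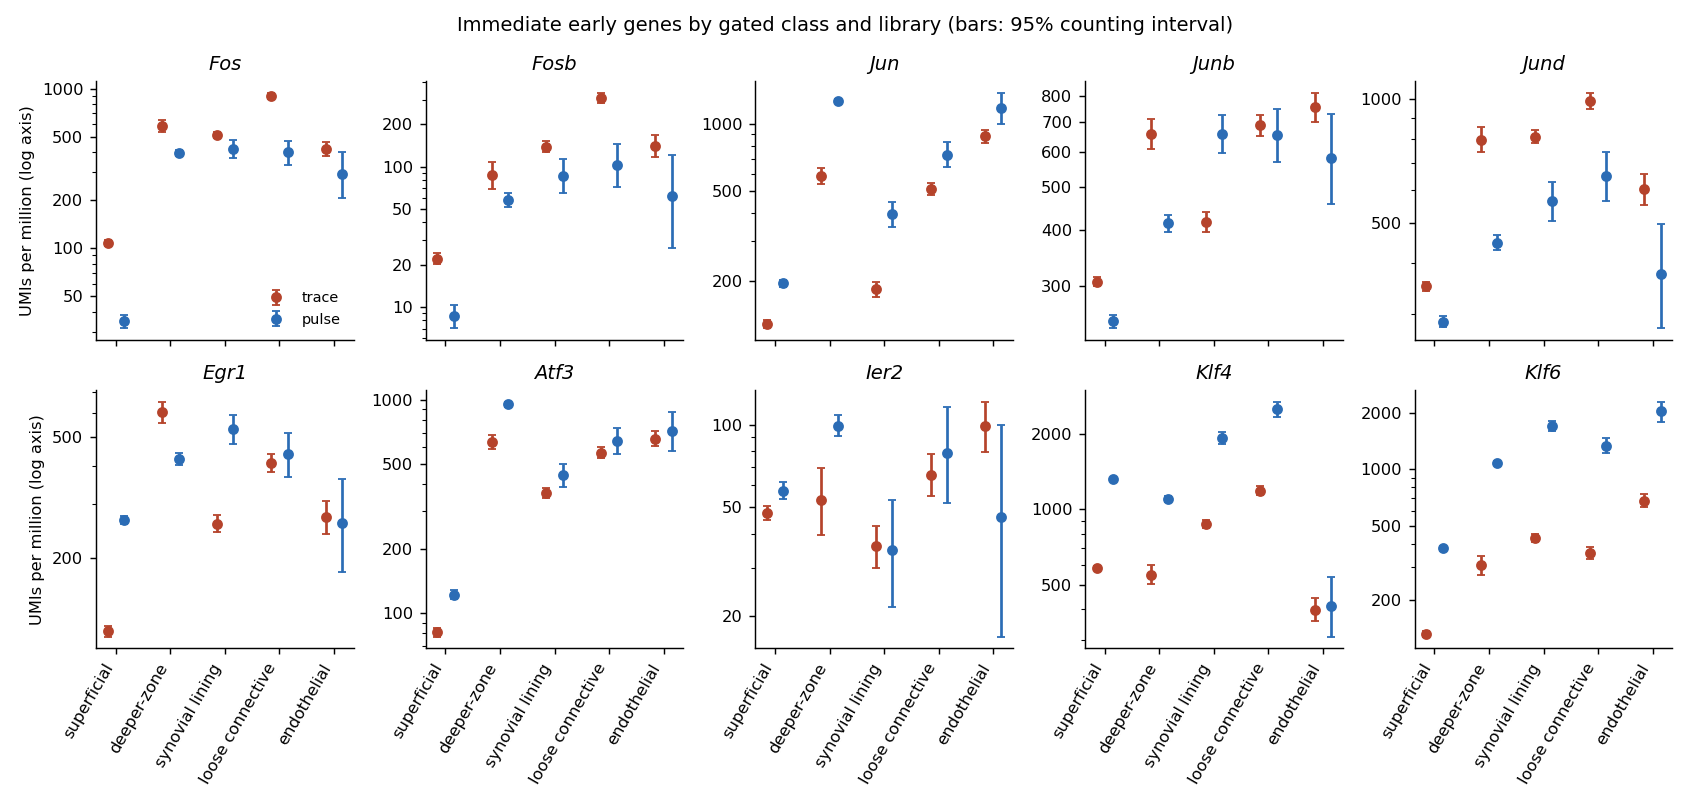
Level of each of the 10 genes in CPM (log axis) in the 5 gated classes with at least 50 cells in both libraries, trace in red and pulse in blue, with 95% counting intervals. Klf6 is lower in trace in all 5 classes, Fos is higher in trace in all 5 (in deeper-zone cells through 4 heat-shock-high trace cells, without which and their pulse counterparts the ratio is 0.622), and the levels of Fos in superficial-gated cells (108 and 34.8 CPM) are the lowest of its classes.

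In the other classes the Jun and Klf6 differences had the same direction, and the ratio of Fos was smaller than in superficial-gated cells. In deeper-zone chondrocyte-gated cells Fos was at 583 CPM in trace and 396 CPM in pulse (1.47, 1.34 to 1.62) and Jun at 589 and 1268 CPM (0.464, 0.425 to 0.506). In synovial lining fibroblast-gated cells Fos was at 514 and 420 CPM (1.22, 1.07 to 1.40) and Jun at 183 and 396 CPM (0.461, 0.397 to 0.537). The Fos ratio of deeper-zone cells rested on 4 heat-shock-high trace cells and was 0.622 (0.537 to 0.717) without the heat-shock-high cells of both libraries. Deeper-zone-gated cells were not alike in the 2 libraries, with medians of 14 trace and 36 pulse UMIs of their markers and Prg4 at 1486 and 273 CPM. The part of this unlikeness in their ratios was not tested. In loose connective tissue fibroblast-gated cells Fos was at 899 and 398 CPM (2.26, 1.89 to 2.72) and Jun at 515 and 730 CPM (0.706, 0.612 to 0.816). In endothelial-gated cells Fos was at 420 and 291 CPM (1.44, 1.03 to 2.07) and Jun at 881 and 1179 CPM (0.747, 0.628 to 0.894). Of the 4 Fos intervals, that of endothelial-gated cells came closest to 1. The ratios of Klf6 in these 4 classes were between 0.253 (0.233 to 0.274) in synovial lining and 0.335 (0.289 to 0.388) in endothelial-gated cells. Klf4 had ratios of 0.498 in deeper-zone, 0.453 in synovial lining and 0.473 in loose connective tissue cells, and 0.964 (0.723 to 1.31) in endothelial-gated cells. Egr1 did not keep its direction: its ratio was 1.42 (1.29 to 1.56) in deeper-zone and 0.491 (0.432 to 0.559) in synovial lining cells.

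The counts past 2-fold were read against each class's own background. In deeper-zone cells none of the 10 genes was 2-fold higher and 3 (Jun, Klf4 and Klf6) were 2-fold lower, against 3.74% and 18% of 6574 genes. In synovial lining cells none was higher and 4 (Jun, Egr1, Klf4 and Klf6) were lower, against 2.47% and 10.6% of 6272 genes. Klf4 and Klf6 were on the lower side in both classes. In loose connective tissue cells Fos and Fosb were higher and Klf4 and Klf6 lower, against 4.01% and 14.4% of 6786 genes. In endothelial-gated cells Fosb and Ier2 were higher and Klf6 lower, against 9.38% and 20.1% of 6942 genes, with 8 and 6 pulse UMIs behind Fosb and Ier2. Relative to the median gene of the class, Egr1, Atf3 and Ier2 in loose connective tissue cells and Atf3 and Klf4 in endothelial-gated cells turned from below to above 1. In classes with fewer than 50 pulse cells, Fos was at 1138 CPM in 158 trace and 542 CPM in 38 pulse osteoblast-gated cells, and at 704 CPM in 229 trace and 958 CPM in 24 pulse mural-gated cells. The lowest levels of trace were in its 191 B lineage-gated cells, with 40.2 CPM of Fos and 120.5 CPM of Jun.

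The order of the classes was not the same for Fos and Jun. By the level of Fos in trace, the classes ran from superficial (108 CPM) through endothelial (420 CPM), synovial lining (514 CPM) and deeper-zone (583 CPM) to loose connective tissue cells (899 CPM), and the intervals of synovial lining and deeper-zone cells overlapped. By the level of Jun in trace they ran from superficial (128 CPM) through synovial lining (183 CPM), loose connective tissue (515 CPM) and deeper-zone (589 CPM) to endothelial-gated cells (881 CPM), and those of loose connective tissue and deeper-zone cells overlapped. In pulse the level of Jun was highest in deeper-zone (1268 CPM) and endothelial-gated cells (1179 CPM), whose intervals overlapped (1238 to 1300 and 1000 to 1381 CPM). Over 14 class and library units, and as a description only, the genes whose log2(CPM + 10) went most closely with Fos were Man1c1 (Pearson r = 0.839), Socs3 (0.782), Ski (0.779), Junb (0.755) and Gadd45g (0.744). Those closest to Jun were Fosl2 (0.821), Atf3 (0.789), Zfp36 (0.783), Abcc5 (0.783) and Sh3bp4 (0.772). Fos and Jun had r = 0.633. Units of 1 library share its depth and handling, and the genes were the top of 10081 compared.

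Fos was concentrated in few superficial-gated cells of trace. Cells were called heat-shock-high when at least 1% of their UMIs came from Hspa1a, Hspa1b, Dnajb1 and Hsph1: 93 trace cells (2.13%, 1.72% to 2.60%) and 269 pulse cells (6.68%, 5.93% to 7.50%). The 93 trace cells held 2.85% of the UMIs of the class and 54.6% (52.5% to 56.7%) of its Fos UMIs. The 269 pulse cells held 6.66% of all UMIs and 29.5% (25.4% to 34.0%) of the Fos UMIs. Jun had similar shares in unequal parts of the libraries, with 24.2% (22.6% to 25.9%) of its UMIs in the trace cells and 23.6% (22.0% to 25.3%) in the pulse cells; per UMI it was 10.9-fold higher in heat-shock-high than in other cells of trace and 4.34-fold higher in pulse. Egr1 had shares close to those of Fos, 58.8% in trace and 29.1% in pulse. Fosb had 41.5% in trace and 18.6% in pulse, the pulse value below that of Jun. Atf3 had 30.3% and 23.9%, Ier2 18.1% and 11.7%, and Junb 16.4% and 11%. In trace Jund (3.36%), Klf4 (4.86%) and Klf6 (4.29%) were the genes nearest to the share of all UMIs. In pulse Jund had 8.29%, Klf4 10.2% and Klf6 12.2%, and the shares of Klf4, Klf6, Ier2 and Junb lay close together.

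**Figure D2:**
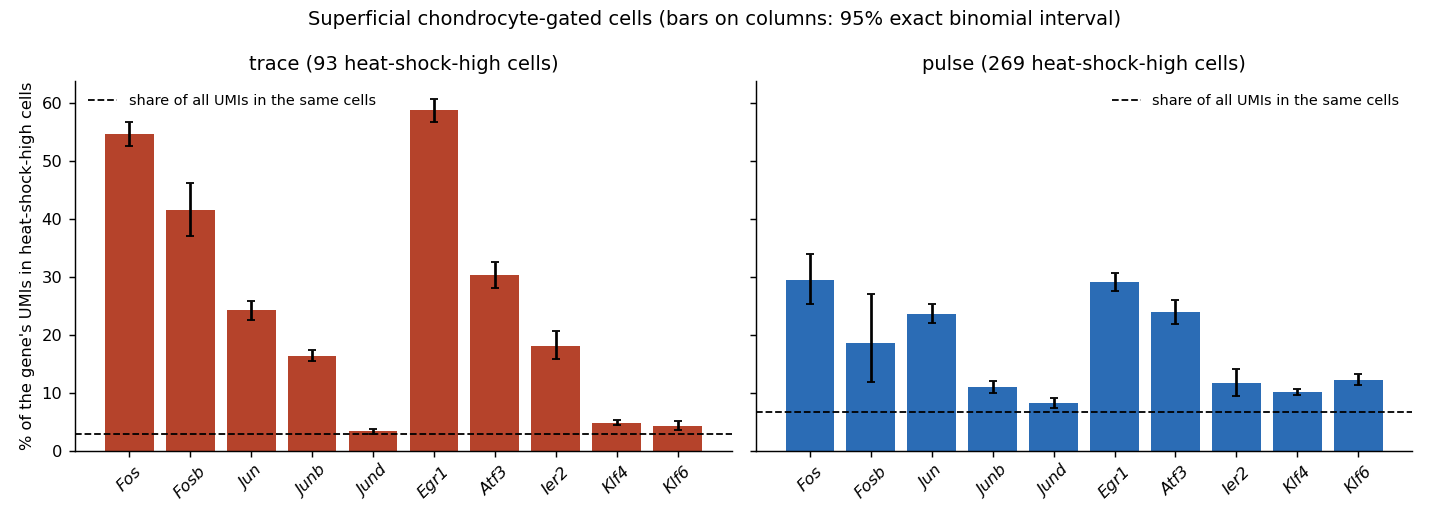
Percent of each gene's UMIs that lay in heat-shock-high superficial-gated cells, in trace (left, 93 cells) and pulse (right, 269 cells), with exact binomial intervals; the dashed line is the share of all UMIs in the same cells, 2.85% and 6.66%. Egr1 (58.8%) and Fos (54.6%) stand highest in trace, and Jund stands close to the line in both.

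Within heat-shock-high cells, Fos was at 2066 CPM in trace and 154 CPM in pulse, a ratio of 13.4 (11.2 to 16.1). In the other superficial-gated cells it was at 50.4 and 26.3 CPM, a ratio of 1.92 (1.69 to 2.18). Jun had opposite directions in the 2 parts: 1086 and 689 CPM in heat-shock-high cells, a ratio of 1.58 (1.41 to 1.76), but 99.6 and 159 CPM in the others, a ratio of 0.627 (0.589 to 0.668). Egr1, Atf3 and Ier2 also turned, with ratios of 2.04, 1.98 and 3.01 in heat-shock-high cells and 0.241, 0.587 and 0.738 in the others. Klf4 (0.494 and 0.449) and Klf6 (0.288 and 0.369) were lower in trace in both. The 2 heat-shock-high sets were unlike: 41 trace and 26 pulse cells had 5% or more heat shock UMIs, and 25 and 157 had 1% to 2%. From 1% to 2%, 2% to 5% and 5% upward, Jun was at 582, 1016 and 1455 CPM in trace and 542, 703 and 1437 CPM in pulse. Egr1 was at 866, 1909 and 3688 CPM in trace and 353, 1828 and 3612 CPM in pulse. The 2 sets also lay unequally across the clusters described below. Heat-shock-high cells were 5.11% of 1232 trace and 13.4% of 641 pulse cells of cluster 0. In cluster 1 they were 0.0982% of 1018 trace and 6.74% of 1068 pulse cells. The part of the unlike heat shock share and of the unlike clusters in these ratios was not tested. Among cells with less than 0.1% heat shock UMIs (3914 trace and 2902 pulse), a limit chosen after the levels were seen, Fos was at 20.2 and 22.5 CPM, a ratio of 0.900 (0.758 to 1.07), so the higher Fos of trace was not detectable there. In the same cells Jun had a ratio of 0.637 (0.591 to 0.686), Egr1 0.171 (0.155 to 0.187), Klf4 0.459 (0.447 to 0.472) and Klf6 0.387 (0.367 to 0.408).

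**Figure D3:**
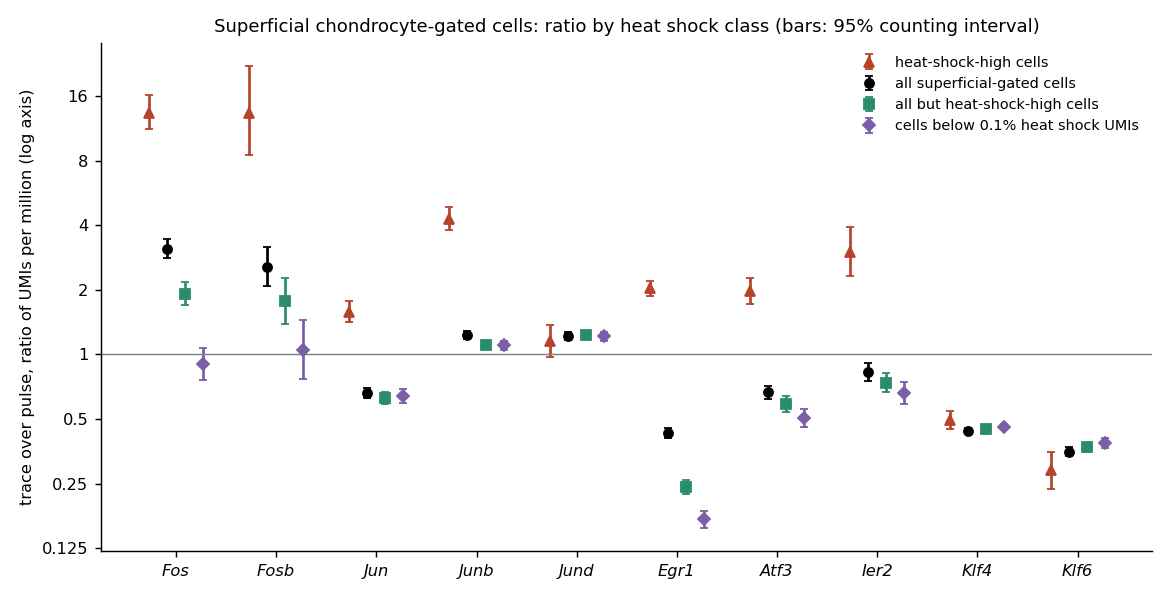
Ratio of trace over pulse (log axis) for each gene in superficial-gated cells that were heat-shock-high, in all of them, in all but the heat-shock-high ones, and in those below 0.1% heat shock UMIs, with 95% counting intervals. Fos goes from 13.4 to 0.900 across these 4 sets, Jun lies above 1 in heat-shock-high cells alone, and Klf4 and Klf6 lie below 1 in all 4.

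Across bins of the heat shock share, Fos in trace left its low level from 0.1% onwards. It was at 19.2 CPM below 0.05% and 25.1 CPM from 0.05% to 0.1%, at 143 CPM from 0.1% to 0.2%, 350.4 CPM from 0.2% to 0.5% and 1463 CPM from 0.5% to 1%. It was at 270.5 CPM in the 25 cells from 1% to 2%, and at 2646 and 2673 CPM in the 2 highest bins, so the order of the bins was broken once. In pulse the level of Fos was 20.9 CPM in the lowest bin, no more than 63.0 CPM in any bin up to 2%, 165 CPM from 2% to 5% and 613 CPM in the 26 cells above 5%. Jun ran more alike in the 2 libraries, with 82.6 CPM in trace and 128.5 CPM in pulse in the lowest bin and 1455 and 1437 CPM in the highest. Egr1 was at 32.0 CPM in trace and 177.5 CPM in pulse in the lowest bin and at 3688 and 3612 CPM in the highest. Klf6 stayed lower in trace in every bin, with 128 and 314.5 CPM in the lowest and 178 and 1194 CPM in the highest.

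**Figure D4:**
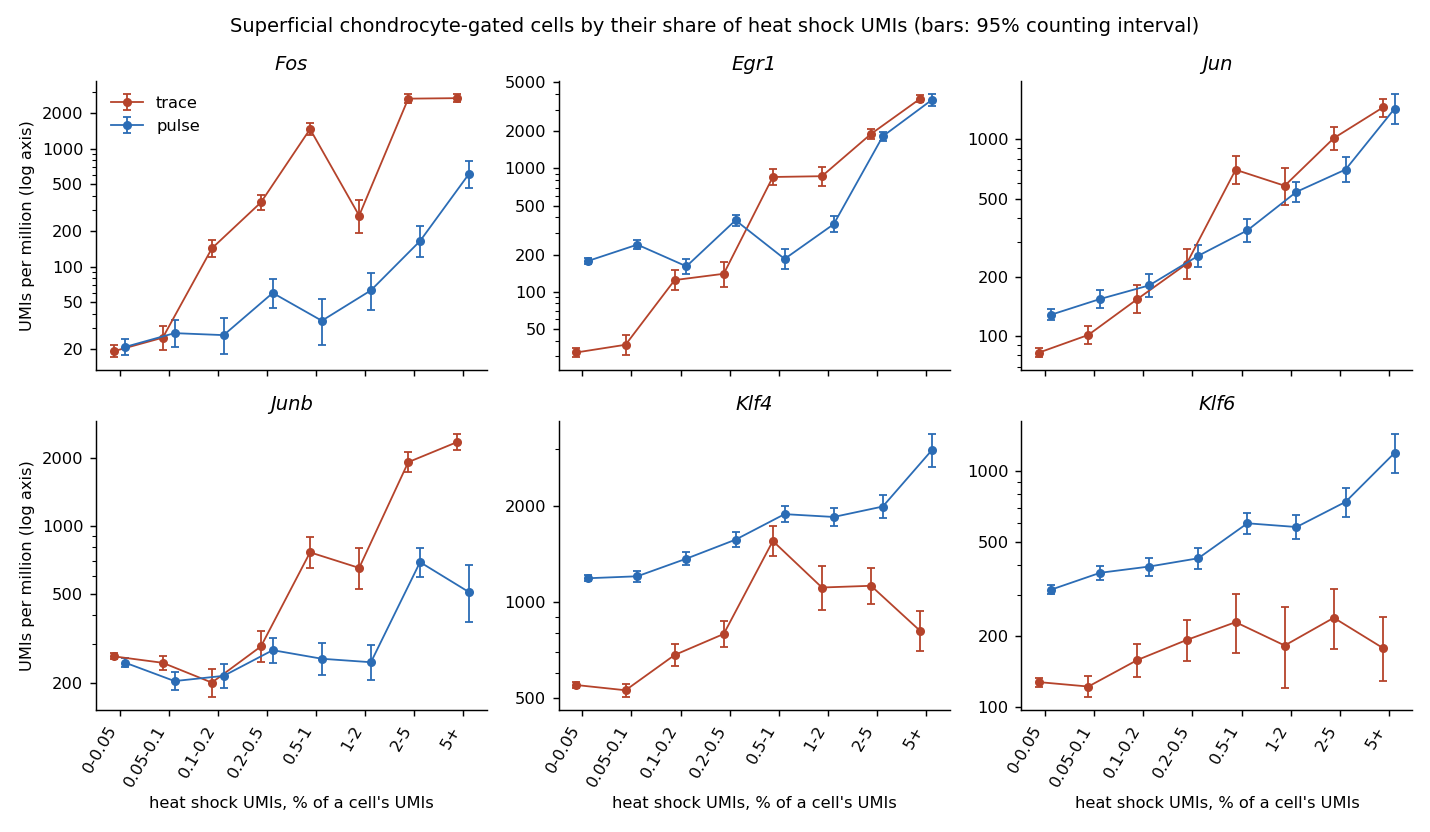
Level of 6 of the genes (CPM, log axis) in superficial-gated cells in 8 bins of the percentage of a cell's UMIs from the 4 heat shock genes, trace in red and pulse in blue, with 95% counting intervals. Fos in trace reaches 2673 CPM in the highest bin against 613 CPM in pulse, whereas Jun ends at 1455 and 1437 CPM.

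Hspa1a and Hspa1b, which encode the inducible chaperone Hsp70, were lower in trace when summed over superficial-gated cells. Singly, Hspa1a had a ratio of 1.42 and Hspa1b of 0.647 in superficial-gated cells, but the 2 genes are near-identical and reads may have been split between them. Summed, they were at 1779 CPM in trace and 2281 CPM in pulse, a ratio of 0.780 (0.768 to 0.792). Heat-shock-high cells of trace had a median of 5794 UMIs and 0.679% mitochondrial UMIs, against 4292 and 1.19% in the other trace cells of the class. In pulse the medians were 2979 UMIs and 0.820% in heat-shock-high cells, against 2968 and 1.07%. The part of depth and of cell handling in the shares was not tested. In clusters made without these genes, heat-shock-high cells were 5.11% of the trace and 13.4% of the pulse superficial-gated cells of cluster 0.

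Cluster 0, led by Msmp and Mgp with the heat shock genes Dnajb1 and Hspa1b also among its leading genes (the cells were clustered without them), had the highest ratio of Fos among 6 clusters of superficial-gated cells. Fos was at 301 CPM in its 1232 trace and 29.8 CPM in its 641 pulse cells, a ratio of 10.1 (7.60 to 13.6). In cluster 1 the ratio was 0.741 (0.540 to 1.02), with 17.9 CPM in trace and 24.1 CPM in pulse. Heat-shock-high cells were 0.0982% of its trace and 6.74% of its pulse cells. The ratios of Fos in clusters 2, 4, 5 and 7 were 2.15 (1.76 to 2.63), 1.58 (1.17 to 2.17), 1.34 (0.913 to 1.99) and 1.06 (0.686 to 1.68). In these clusters heat-shock-high cells were between 0.901% and 2.65% of the trace and between 2.87% and 9.05% of the pulse cells. The ratio of Jun was below 1 in all 6 clusters, between 0.483 in cluster 1 and 0.802 in cluster 2. Klf6 lay between 0.255 and 0.405 and Klf4 between 0.320 and 0.541 in the 6. Egr1 was higher in trace in cluster 0 (1.89, 1.64 to 2.17) and lower in the other 5, between 0.156 and 0.305. Why Fos and Jun differed in direction was not tested.

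**Figure D5:**
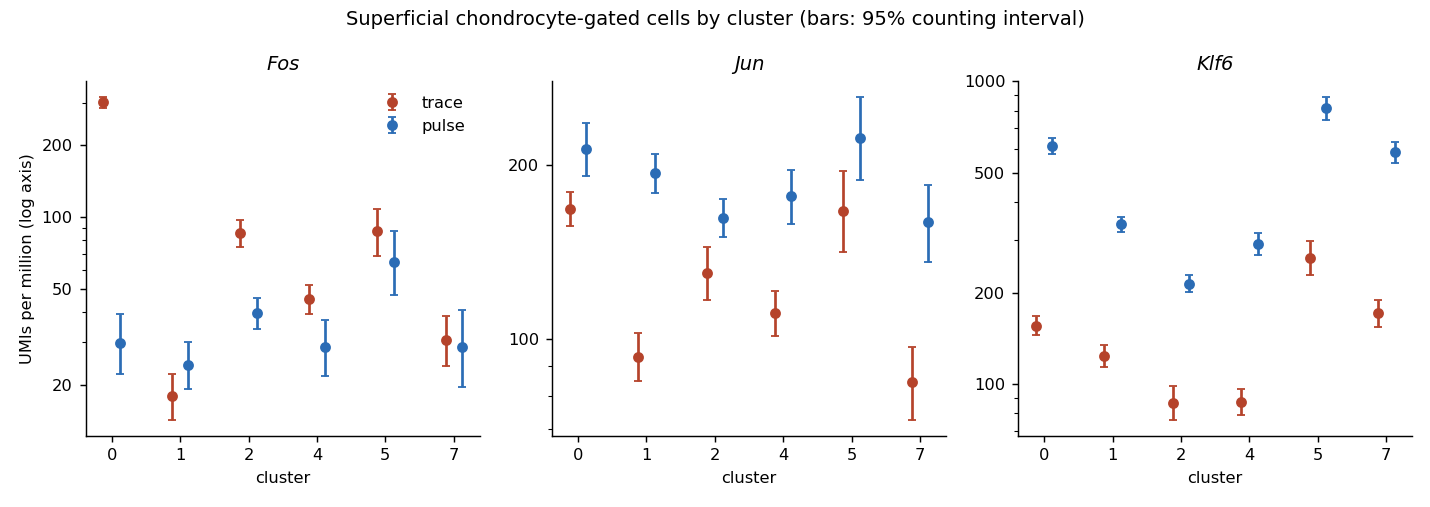
Levels of Fos, Jun and Klf6 (CPM, log axis) in the superficial-gated cells of 6 clusters, trace in red and pulse in blue, with 95% counting intervals. Fos separates widely in cluster 0 (301 and 29.8 CPM) and overlaps in clusters 1, 5 and 7, while Jun and Klf6 are lower in trace in all 6.

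Outside the superficial gate the concentration differed by class. In deeper-zone cells, 4 heat-shock-high trace cells held 62.4% (58.2% to 66.4%) of the 561 Fos UMIs of the class, and 1 of them held 176. That interval takes the UMIs as independent and does not cover the spread between so few cells. Without the heat-shock-high cells Fos turned, to 228 CPM in trace and 367 CPM in pulse, a ratio of 0.622 (0.537 to 0.717). Jun was lower with and without them (0.464 and 0.388). In pulse most Fos UMIs of the class lay outside heat-shock-high cells: 24 heat-shock-high cells held 9.67% of the Fos UMIs in 2.61% of all UMIs, and the cell with the most Fos UMIs (69) had 0.0319% heat shock UMIs. In synovial lining cells 7.84% of trace and 24.7% of pulse cells were heat-shock-high, and they held 13.01% and 43.9% of the Fos UMIs in 8.06% and 25.3% of all UMIs. Fos in the other synovial lining cells was at 486 CPM in trace and 315 CPM in pulse (1.54, 1.30 to 1.84).

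In loose connective tissue cells 12.2% of trace and 38.7% of pulse cells were heat-shock-high. They held 20.0% of the trace and 57.3% of the pulse Fos UMIs, in 10.7% and 34.8% of all UMIs. Fos was higher in trace within them (2.58, 2.00 to 3.35) and outside them (3.08, 2.36 to 4.10). Jun turned in this class, with a ratio of 0.582 (0.473 to 0.717) within heat-shock-high cells and 1.72 (1.32 to 2.29) outside them, and the 60 pulse heat-shock-high cells held 75.8% of the pulse Jun UMIs. Below 0.1% heat shock UMIs the higher Jun of trace was not seen (226 trace and 33 pulse cells; 0.912, 0.603 to 1.44). In endothelial-gated cells 24.2% of trace and 40.4% of pulse cells were heat-shock-high. These endothelial-gated cells held 26.6% and 28.9% of the Fos UMIs, against 20.9% and 36.3% of all UMIs, and 43.2% and 63.0% of the Jun UMIs. Below 0.1% heat shock UMIs the Fos ratios of these classes ran in both directions. Fos had a ratio of 0.303 (0.232 to 0.389) in deeper-zone and 4.95 (2.98 to 8.90) in synovial lining cells. In loose connective tissue cells it was at 489 CPM in trace and 25.02 CPM in pulse, a ratio of 19.5 (5.37 to 162) with 2 pulse UMIs behind it. In endothelial-gated cells the ratio was 1.92 (0.790 to 6.05), with 11 pulse cells.

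At equal depth and over all superficial-gated cells, the difference in Fos lay more in how much a positive cell held than in how many cells were positive. Superficial-gated cells were thinned to 2000 UMIs, which left 3840 trace and 3229 pulse cells and set aside 525 and 796 shallower ones. A Fos UMI was found in 5.81% (5.09% to 6.59%) of trace and 4.40% (3.72% to 5.16%) of pulse cells, with 3.09 and 1.45 UMIs per positive cell. Jun was found in 15.8% (14.7% to 17.0%) of trace and 23.4% (22.0% to 24.9%) of pulse cells, with 1.56 and 1.60 UMIs per positive cell. Over all these cells, the share of Jun-positive cells differed and the UMIs in each hardly did. In heat-shock-high cells a Fos UMI was found in 71.4% of 84 thinned trace cells and 9.95% of 211 thinned pulse cells. In the other cells it was found in 4.34% and 4.01%, so the gap between the libraries was widest in heat-shock-high cells. There the share of Fos-positive cells itself differed. A Jun UMI was found in 75% of trace and 51.2% of pulse heat-shock-high cells, but in 14.5% and 21.5% of the others, so its direction turned. Klf6 was found in 20.7% (19.5% to 22.0%) of trace and 40.1% (38.4% to 41.8%) of pulse cells, and Klf4 in 50.03% and 73.6%. Over the same cells the Pearson correlation of Fos and Egr1 was 0.545 in trace and 0.205 in pulse, and that of Fos and Jun 0.296 and 0.107, as descriptions within 1 library each. Without heat-shock-high cells they were 0.329 and 0.163 for Fos and Egr1, and 0.144 and 0.0393 for Fos and Jun. Without thinning, a Fos UMI was found in 9.23% of trace and 6.78% of pulse superficial-gated cells, and a Jun UMI in 26.6% and 31.2%, with median depths of 4322 and 2968 UMIs. The lowest share of Fos among the gated classes of trace with at least 50 cells was 6.81%, in B lineage-gated cells with a median of 1811 UMIs.

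Heat-shock-high and other superficial-gated cells were then compared within each library, where sex, age and chase time are shared. The mix of clusters was not shared: heat-shock-high cells were 5.11% of cluster 0 and 0.0982% of cluster 1 in trace, and 13.4% and 6.74% in pulse. The part of this mix in the differences was not tested. In trace 7 of the 10 genes (Fos, Fosb, Jun, Junb, Egr1, Atf3 and Ier2) were at least 2-fold higher in heat-shock-high cells and none 2-fold lower, where 7.08% and 10.7% of 6160 genes were. In pulse 5 of 10 (Fos, Fosb, Jun, Egr1 and Atf3) were higher and none lower, where 2.04% and 1.33% of 6312 genes were. Fos was 41.0-fold higher in trace and 5.88-fold higher in pulse, Jun 10.9-fold and 4.34-fold, and Egr1 48.6-fold and 5.76-fold. The medians of the 10 genes were 3.18 and 1.32 on the log2 scale, against -0.14 and -0.03 over all genes tested.

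Further early genes and their regulators were read in the same way, and the examples given were chosen after their values were seen. Over all genes tested, 7.08% were 2-fold higher and 10.7% lower in heat-shock-high cells of trace, and 2.04% and 1.33% in pulse. Of 27 other primary response genes tested in trace, 15 were 2-fold higher in heat-shock-high cells and 2 lower. Arc, a gene best known from neurons, was at 84.2 CPM there and 2.32 CPM in the other cells. The nuclear receptor gene Nr4a1 was at 172 and 17.9 CPM, and Ccn1, a matrix protein gene, at 1104 and 217 CPM. Ier3, a survival gene (426 and 1459 CPM), and Ccn2 (3727 and 8747 CPM) were lower. In pulse 6 of 24 were higher and none lower. Zfp36, which speeds the decay of early RNAs, was 5.66-fold higher in trace and 2.90-fold higher in pulse, and Socs3, a brake on cytokine signalling, 7.37-fold and 2.60-fold. Of 10 AP-1-linked genes of joint cells, none was higher and 6 were lower in trace, Mmp3 (386 and 1856 CPM) and Timp1 (177 and 499 CPM) among them. In pulse 1 of them (Hmox1) was higher and none was lower. Of 20 other heat shock genes, 14 were higher in trace and 15 in pulse, and none was lower in either. None of the 8 transcripts that mark RNA quality passed 2-fold in either library.

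Between the libraries, the same lists were counted at 2-fold in superficial-gated cells, where 2.19% of all 6207 genes were higher and 8.97% lower. Of 13 other AP-1 and bZIP partners tested, none was 2-fold higher in trace and Crem, a cyclic AMP-responsive repressor and activator gene, was lower, at 26.96 CPM in trace and 57.7 CPM in pulse. Of 25 other primary response genes, 2 were higher, Gadd45g (2.12) among them, and Egr2 (0.392), Nr4a3 (0.358) and Ier3 (0.436) were lower. Of 17 feedback inhibitors, Socs3 was higher (2.14) and Btg2 lower (0.452), and of 13 upstream kinases and factors Map3k1 was higher (2.01). Of 10 AP-1-linked genes, Timp1 was at 490 CPM in trace and 205 CPM in pulse and Hmox1, which degrades haem, at 209 and 508 CPM. Of 20 other heat shock genes Hspd1, a mitochondrial chaperone, was higher (2.05), and of 8 endoplasmic reticulum stress genes Ddit3 (0.483) and Trib3 (0.464) were lower. The medians of these lists lay between -0.56 and 0.41 on the log2 scale, against -0.23 over all genes. Of 8 RNA quality transcripts, 6 linked to ribosomal RNA were 3.74 to 12.1-fold higher in trace and Neat1 was lower (0.351); their part in the differences was not tested.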

How the data were processed

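Both libraries were 10x droplet libraries, and the authors deposited UMI counts per gene and barcode. Cell Ranger is given as 7.1.0 per the file headers and as 3.0.1 with mm10 per the submitters' processing notes; which made the matrices is not given in the sources used. No value was normalized before deposit. Cells with at least 500 genes and at most 10% mitochondrial UMIs were kept. Scrublet was run and marked 0 cells in each library, so its calls removed none; leaving out the highest 5% of its doublet scores was an alternative. Classes were gated by detected markers, with marker subsets and cut-offs set after levels were seen; superficial cells needed 7 of 12 markers and at least 10 UMIs of Acan and Col2a1 per 10000, and the other gates at least 2 markers (neutrophil 3). Cells in several gates were left out of the classes, except that cells passing only the superficial and deeper-zone gates were kept as deeper-zone. UMIs were summed per class and library, and genes at 20 CPM or more in either group and past 2-fold were counted. Clusters (Leiden, resolution 1, 2000 variable genes, 30 components, 20 neighbours) were made without the 10 genes and heat shock genes. The 10 genes and the further lists were chosen with earlier results of these data known; the text names all 10 genes, up to 4 genes of each list past 2-fold in superficial-gated cells, the 5 genes most like Fos and Jun, and examples within libraries chosen after their values were seen. The calls were tested on simulated Poisson sums with known folds, which held no spread between cells beyond counting. In thinned superficial-gated trace cells the variance was 8.75 times the mean for Fos and 12.8 times for Egr1. The median of genes of similar level was 1.13. The simulation therefore cannot show how the calls behave for such genes. Python 3.11.15, numpy 2.4.6, pandas 2.3.3, scipy 1.17.1, scanpy 1.11.5 and matplotlib 3.10.9 were used.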

Additional observations from a re-analysis of the deposited data

How the results depend on the processing

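In superficial-gated cells the log2 ratio of trace over pulse was 1.63 for Fos and -0.60 for Jun. For Fos it was 1.87 scaled to the median gene, 0.94 without heat-shock-high cells, and -0.15 (-0.40 to 0.10) without cells from 0.1% heat shock UMIs, an alternative chosen after seeing the data. Leaving out the highest 5% of doublet scores gave 1.77 for Fos and -0.61 for Jun. For Jun it was -0.50 in the class taken from clusters, -0.48 without mitochondrial and ribosomal RNA-linked UMIs, and -0.37 scaled to the median gene. Of the 10 genes, 5 were past 2-fold (2 higher, 3 lower), and 3 under median scaling (2 higher, 1 lower). Without heat-shock-high cells 3 were (0 higher, 3 lower), and without cells from 0.1% again 3 (0 higher, 3 lower). Fos and Fosb were thus not 2-fold higher in these last 2 settings. Among all genes, 693 of 6207 tested were past 2-fold (136 higher, 557 lower, or 2.19% and 8.97%). The number was 698 (136 higher, 562 lower) without heat-shock-high cells and 728 (145 higher, 583 lower) without cells from 0.1%. Without the floor of 20 CPM it was 7369 (831 higher, 6538 lower). The split was 264 higher and 347 lower under median scaling and 206 higher and 432 lower without mitochondrial and ribosomal RNA-linked UMIs. The share of Fos UMIs in heat-shock-high cells was 59.2% in trace and 36.1% in pulse in the class from clusters, 68.8% and 34.1% at a limit of 0.5%, and 22.5% in pulse at 2%. For Jun it was 26.1% in trace in the class from clusters, 30.0% and 31.8% at 0.5%, and 21.0% and 12.9% at 2%. No paired analysis was possible because each group is 1 library. The cause of these shifts was not tested. With 1 library a group, the spread between mice is unknown, and levels near 20 CPM rest on few UMIs.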
